A study of Mus musculus with 8 samples.

Results

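The genes of 3 families of conjugating enzymes were followed across 8 mouse liver libraries. They were chosen by symbol: UDP-glucuronosyltransferases (UGT) of families 1, 2 and 3, glutathione S-transferases (GST) of the alpha, kappa, mu, omega, pi, theta and zeta classes, and sulfotransferases (SULT). Pseudogene symbols were left out, and at least 80 sense reads summed over the libraries were required. Of 25229 genes in the files, 61 symbols matched and 54 had enough reads, namely 18 UGT, 21 GST and 15 SULT genes. The 7 left out were Sult2a4 with 52 reads, Sult4a1 with 25, Gstt4 with 5, Ugt2a1 with 4, Sult2b1 with 2, and Sult1c1 and Ugt2a2 with 0. The members nearest above the minimum were Gsto2 with 114 reads and Sult2a6 with 133.

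Every mouse was C57BL/6 and Ifih1-/-, without MDA5, a cytosolic sensor of double-stranded RNA, and had Alb-Cre, a recombinase under the albumin promoter, which is active in hepatocytes. The groups differ at Adar, which encodes the RNA-editing enzyme ADAR1: 3 mice were Adar1 flox/flox, 2 were Adar1 wt/flox and 3 were Adar1 wt/wt. The wt/wt mice thus carry Cre and the Ifih1 deletion too. The design text speaks of 2 flox/flox mice, but 3 samples carry this genotype, and all were used. In every group replicate 1 was labelled 11 weeks old and replicate 2 was labelled 9 weeks old, and replicate 3, which wt/flox lacks, was labelled 7 weeks old. Livers were perfused with collagenase, and the cells were pelleted at low speed and taken from a Percoll gradient, which enriches hepatocytes. The libraries were rRNA-depleted and strand-specific. P-values measure the spread between these mice.

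Depth was 75875711 to 132303735 sense gene reads per library. The deposited tables mark wt/wt apart from all other libraries, which bear the mark of a second batch. Batch and genotype therefore cannot be told apart in any comparison with wt/wt, and no batch holds both groups. Alignments to several places made up 3.9% to 5.0% in the floxed groups and 9.0% to 10.9% in wt/wt. Reads in no gene made up 31.65% to 40.0% in the floxed groups and 22.2% to 28.1% in wt/wt, without overlap. The labelled sex was contradicted in 2 libraries: in flox/flox, replicate 1 (female by its label) gave 21255 reads of Y-linked genes and 31 of Xist, and replicate 2 (male by its label) gave 0 and 246646. By transcripts, 3 libraries had Xist reads (flox/flox replicates 2 and 3 and wt/wt replicate 3) and 5 had Y-linked reads, both wt/flox libraries among them. The tests therefore hold genotype alone, and calls of members and of the lists of related genes that change when sex by transcripts is added are given beside the results. Adar, counted over the whole gene and not over the floxed part, was 49.4, 35.9 and 42.1 CPM in flox/flox, 22.0 and 31.8 CPM in wt/flox, and 28.1, 30.0 and 53.6 CPM in wt/wt, so its count checks the genotype labels little. Hepatocyte markers dominated every library: 8 of them summed to 132400 to 203800 CPM in flox/flox, 118900 to 136100 in wt/flox and 86790 to 105600 in wt/wt. Alb alone made up most of each sum, ranging from 63590 to 79950 CPM across wt/wt libraries and from 86650 to 171700 CPM across floxed ones. The order of the sums thus mainly reflects this gene. Serpina1a, Cps1, Asgr1 and Fga also had a higher mean with flox/flox than with wt/wt, whereas Apoa1, Ttr and Hnf4a had a lower one. Markers of sinusoidal endothelial cells summed to 65.0 to 140.9 CPM in flox/flox, 78.2 to 86.0 CPM in wt/flox and 156.7 to 246.1 CPM in wt/wt. In bulk samples such as these, fewer cells of a type and less RNA per cell cannot be told apart.

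The 3 families attach a polar group to drugs, hormones, bile pigments and bile acids, so that these leave the cell in bile or blood. UGTs sit in the endoplasmic reticulum and use UDP-glucuronic acid, most GSTs are cytosolic dimers that use glutathione, and SULTs of these families are cytosolic and use the sulfate donor PAPS. In liver their genes are known targets of the nuclear receptors CAR and PXR, the aryl hydrocarbon receptor and the antioxidant regulator NRF2. In mice several differ between the sexes through the pattern of growth hormone, which acts through STAT5B.

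Levels differed widely among the members. CPM, counts scaled by TMM library sizes, were divided by exon length to compare genes. For the Ugt1a genes, which share their later exons, the length of the exons not shared was used. Ugt2b5 was highest, with a mean of 612 CPM per kilobase over the 8 libraries (range 322 to 941), followed by Gstm1 with 459 (212 to 772) and Gstp1 with 438 (42.0 to 975). Ugt1a1, the bilirubin-conjugating enzyme, averaged 353.5 CPM per kilobase (159 to 657.5), and Ugt2b36 averaged 304 (166 to 449). In the GST class Gsta3, an alpha-class enzyme known in mice to detoxify the epoxide of aflatoxin, followed Gstm1 and Gstp1 with 173 CPM per kilobase (110.0 to 291.5). The highest sulfotransferases were Sult1a1, which sulfates phenols, with 149 CPM per kilobase (101 to 218), Sult2a8 with 137 (91.9 to 204.5) and Sult2a2 with 46.2 (0 to 185). Gsto2 was the lowest of the 54, at 0.057 CPM per kilobase.

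The steadiness of the members also differed. The SD of log2(CPM + 0.5) over the 8 libraries was 0.11 for Gstk1, a mitochondrial and peroxisomal transferase, and 0.15 for Gstm5. It was 3.84 for Sult2a2, 3.77 for Sult2a1, 3.47 for Sult3a1 and 1.79 for Sult2a5. Among UGT genes it was largest for Ugt2b38 (2.18), Ugt2b37 (1.24), Ugt1a5 (0.98) and Ugt1a7c (0.92). Among GST genes with a mean of at least 1 CPM it was largest for Gstp1 (1.84), Gstp2 (1.1), Gstm3 (0.78) and Gstt3 (0.73). In the plot of members by library the widest variation runs between libraries with Xist reads and libraries with Y-linked reads, as described after the genotype comparisons.

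**Figure D1:**
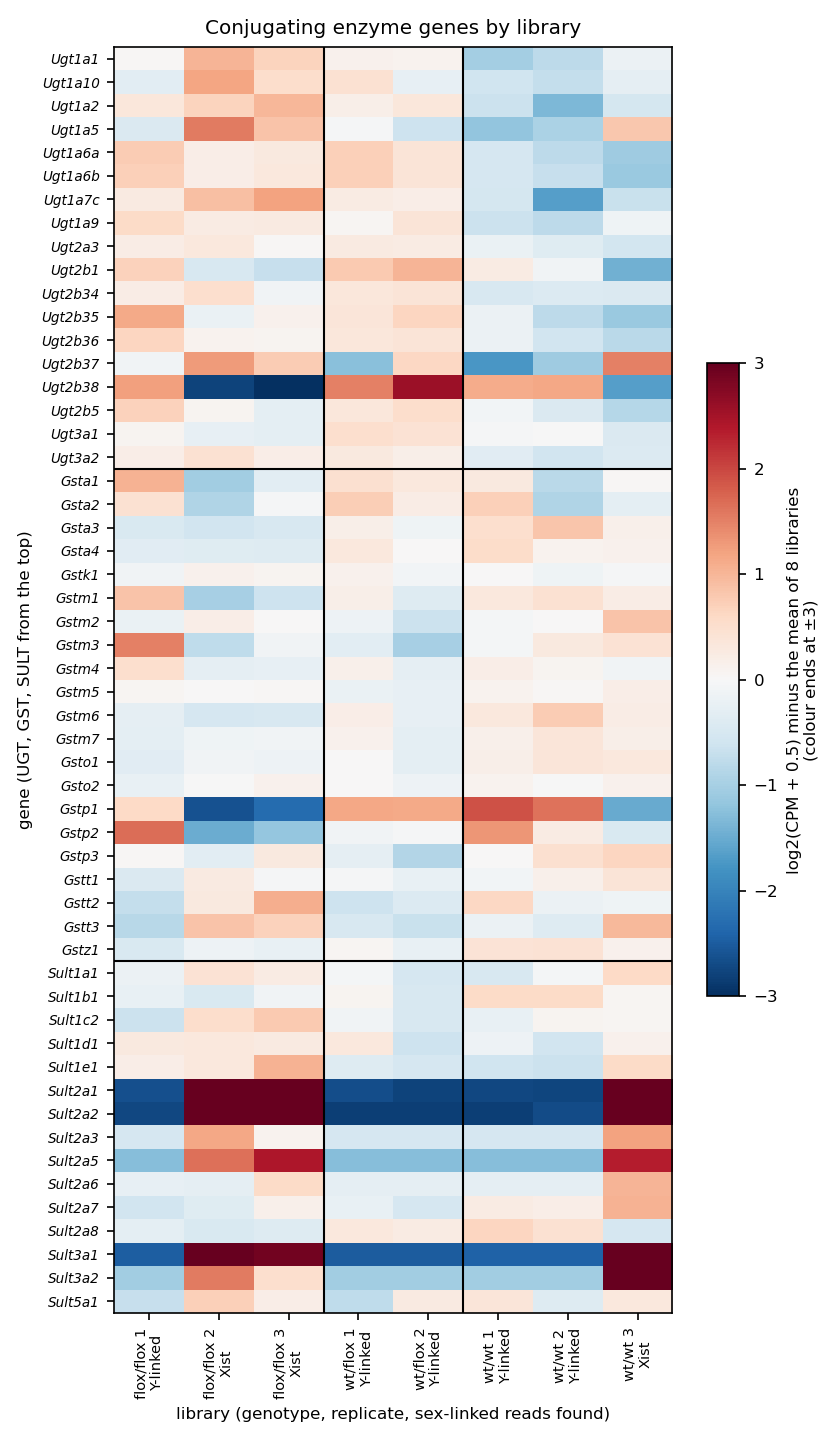
Each row is 1 of the 54 genes and each column 1 library, named by genotype, replicate and the sex-linked reads found. Colour is log2(CPM + 0.5) minus the gene's mean over the 8 libraries, and colours end at 3 in either direction. Most UGT rows are warm in flox/flox and wt/flox and cool in wt/wt, and the deepest colours, in Sult2a1, Sult2a2, Sult3a1, Gstp1 and Ugt2b38, split the libraries by sex-linked reads.

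Summed over its members with TMM scaling, the UGT class was higher in every flox/flox and wt/flox library than in any wt/wt library. It reached 7027, 5673 and 4726 CPM in flox/flox (mean 5809 ± 1157 SD, n = 3), 6349 and 6833 CPM in wt/flox (6591 ± 342.7, n = 2) and 4209, 3527 and 3000 CPM in wt/wt (3579 ± 606, n = 3). Ugt2b5 was the largest contributor in all 8 libraries, with 18.5% to 24.9% of the sum. The separation rests on the scaling. With library size alone the UGT sum of wt/wt replicate 1 would exceed those of flox/flox replicates 2 and 3. The GST class summed to 3070, 1742 and 1875 CPM in flox/flox (2229 ± 731.3), 3323 and 2757 CPM in wt/flox (3040 ± 399.6) and 4369, 4447 and 2741 CPM in wt/wt (3852 ± 963). These sums overlapped between flox/flox and wt/wt, and the lowest sum of wt/wt belonged to its library with Xist reads. The SULT class summed to 688, 1091 and 869 CPM in flox/flox (883 ± 201.9), 894 and 753 CPM in wt/flox (823.5 ± 99.61) and 958, 906 and 1084 CPM in wt/wt (982.7 ± 91.67), with overlap. No test was made on the sums.

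**Figure D2:**
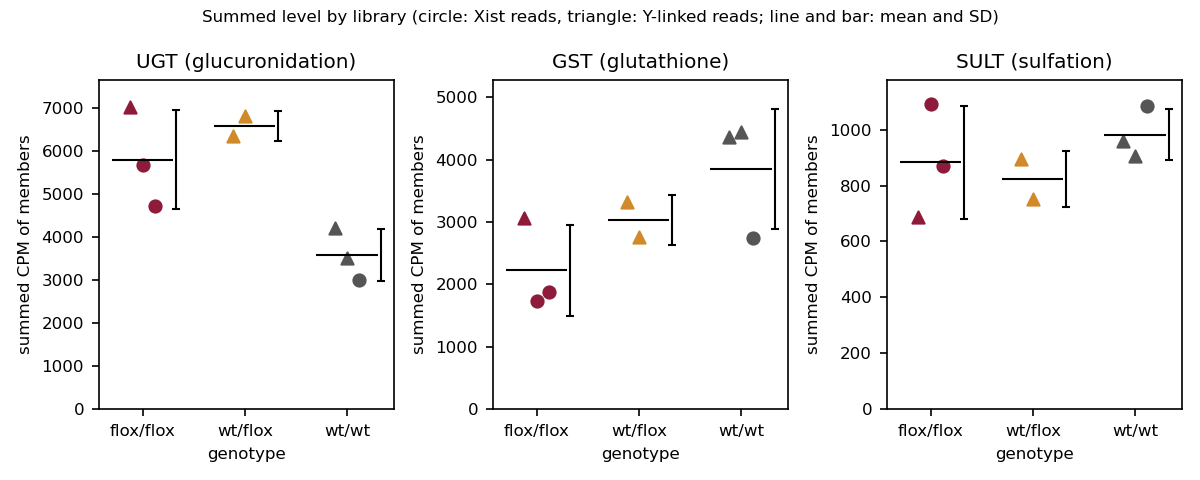
The y axis is the summed CPM of the members of a class, with flox/flox (3 libraries), wt/flox (2) and wt/wt (3) from left to right; circles are libraries with Xist reads, triangles libraries with Y-linked reads, the line is the mean and the bar the SD. For UGT, with TMM scaling, the lowest floxed library (4726 CPM) lies above the highest wt/wt library (4209 CPM). The GST and SULT sums of flox/flox and wt/wt overlap, as would the UGT sums with library size alone.

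The design asks what loss of Adar in hepatocytes changes when MDA5 is absent, and flox/flox against wt/wt is its widest contrast. Of the 18 UGT genes 10 were called higher and 0 lower (edgeR, adjusted p at most 0.05 over 14728 genes), and the other 8 did not pass. Of the 21 GST genes 0 were called higher and 5 lower, and 16 did not pass. Of the 15 SULT genes 0 were called higher and 1 lower. All 54 members entered the test. Over all genes 15.1% were called higher and 14.7% lower, so a call in this contrast is common, and the SULT count lies under both shares. The median log2 fold change was 0.83 for UGT, -0.33 for GST and 0.11 for SULT, beside 0.02 for all genes. With library size alone as the scale the median of all genes became -0.31, and 6 members were called higher and 9 lower (40% of calls higher), against 10 and 6 (62.5%) with TMM. With wt/wt replicate 2 left out, 5 were called higher and 3 lower. The counts were 7 and 4 when wt/wt replicate 1 was left out, 8 and 4 for flox/flox replicate 2, and 11 and 9 for flox/flox replicate 1. Without the 2 libraries of contradicted sex, which leaves 1 flox/flox library, 5 members were called higher and 0 lower.

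**Figure D3:**
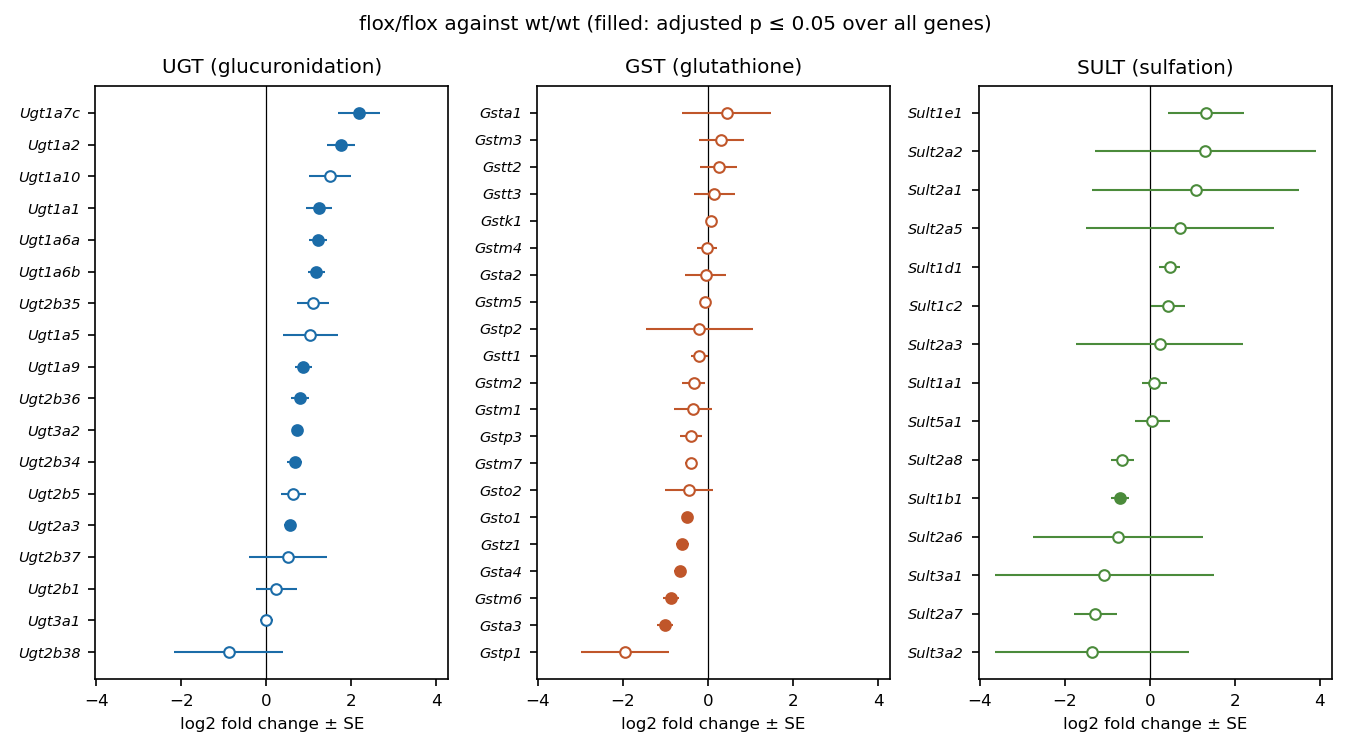
The x axis is the log2 fold change of flox/flox against wt/wt with its standard error, 1 gene per row, in a panel for each class; filled points passed an adjusted p of 0.05 over all genes (edgeR). Of the UGT points 16 of 18 lie above 0, and 10 of these are filled. Of the GST points 16 of 21 lie below 0, 5 of them filled, and the SULT points spread to both sides with wide errors for the Sult2a and Sult3a genes.

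Of the 8 Ugt1a genes, which lie in a cluster on chromosome 1 and share their later exons, 6 were called higher: Ugt1a1, Ugt1a2, Ugt1a6a, Ugt1a6b, Ugt1a7c and Ugt1a9. Because 50.4% to 70.9% of the exon windows of these genes occur in another member, the split of reads among them is uncertain. Ugt1a6a, whose enzyme glucuronidates small phenols, had 113, 76.8 and 82.3 CPM in flox/flox, 109.6 and 86.8 CPM in wt/flox, and 46.8, 38.4 and 31.3 CPM in wt/wt. Its lowest floxed library stood above its highest wt/wt library, with a log2 fold change of 1.22 for flox/flox against wt/wt (SE 0.21, edgeR adjusted p = 0.0051). Its neighbour Ugt1a6b gave nearly the same values, with 107.1, 74.4 and 80.8 CPM in flox/flox, 106.8 and 85.0 CPM in wt/flox, and 45.9, 40.2 and 30.0 CPM in wt/wt (log2 fold change 1.18 with SE 0.20, edgeR adjusted p = 0.00555).

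Ugt1a1 was 300.6, 600.3 and 468 CPM in flox/flox, 319.9 and 316 CPM in wt/flox, and 145, 171 and 261.5 CPM in wt/wt. Neither floxed group overlapped wt/wt, and the highest library of each of flox/flox and wt/wt had Xist reads (log2 fold change 1.24 with SE 0.30, edgeR adjusted p = 0.0173). The call of Ugt1a1 was lost when replicate 1 or 2 of wt/wt or replicate 2 of flox/flox was left out. Ugt1a9, known for glucuronidation of phenols, had 156, 124 and 126 CPM in flox/flox, 108 and 136 CPM in wt/flox, and 66.3, 60.35 and 95.8 CPM in wt/wt (log2 fold change 0.87 with SE 0.20, edgeR adjusted p = 0.0159). Ugt1a9 was no longer called without replicate 1 or 2 of wt/wt, or with library size alone. The largest fold changes were those of low genes of the cluster. Ugt1a7c had 2.64, 4.39 and 5.50 CPM in flox/flox, 2.60 and 2.49 CPM in wt/flox, and 1.30, 0.321 and 1.13 CPM in wt/wt (log2 fold change 2.19 with SE 0.50, edgeR adjusted p = 0.0156). Ugt1a2 had 3.84, 4.93 and 6.34 CPM in flox/flox, 3.37 and 3.81 CPM in wt/flox, and 1.71, 0.846 and 1.87 CPM in wt/wt (log2 fold change 1.77 with SE 0.33, edgeR adjusted p = 0.00674). Ugt1a2, Ugt1a6a and Ugt1a6b were called higher under all 23 alternative settings. Ugt1a10 (log2 fold change 1.5, edgeR adjusted p = 0.0531) and Ugt1a5 (1.04, adjusted p = 0.250) did not pass the test.

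In the Ugt2 and Ugt3 families 4 of 10 genes were called higher. Ugt2a3 had 430.4, 459 and 380.4 CPM in flox/flox, 445 and 436 CPM in wt/flox, and 324, 289 and 253.5 CPM in wt/wt (log2 fold change 0.55 with SE 0.14, edgeR adjusted p = 0.0205). Ugt2b34 had 684, 833 and 545 CPM in flox/flox, 740.3 and 765 CPM in wt/flox, and 423, 439.8 and 434 CPM in wt/wt (log2 fold change 0.67 with SE 0.17, edgeR adjusted p = 0.0202). Ugt2b36 had 925, 643 and 633 CPM in flox/flox, 758 and 776 CPM in wt/flox, and 525.5, 401 and 341.5 CPM in wt/wt (log2 fold change 0.80 with SE 0.21, edgeR adjusted p = 0.0268). None of these 3 genes overlapped between flox/flox and wt/wt, which adds no support to calls made on the same values. All 3 lost the call with library size alone and without wt/wt replicate 2. Omission of flox/flox replicate 2 ended the calls of Ugt2a3 and Ugt2b34, omission of replicate 3 of wt/wt those of Ugt2a3 and Ugt2b36, and omission of replicate 1 of wt/wt that of Ugt2b34. Ugt2b36 was also not called with labelled sex, or when replicate 1 of either floxed group was omitted. Ugt3a2 (chromosome 15, 9335550 to 9370955, GRCm38) belongs to the family whose human members use sugars other than glucuronic acid, and had 577, 689 and 570.2 CPM in flox/flox, 615 and 566 CPM in wt/flox, and 392, 336 and 376 CPM in wt/wt. It was steady within each group, with a log2 fold change of 0.73 (SE 0.13, edgeR adjusted p = 0.00665). Its neighbour Ugt3a1 did not follow it, with 76.8, 61.9 and 59.3 CPM in flox/flox, 103.5 and 98.6 CPM in wt/flox, and 71.0, 72.6 and 54.3 CPM in wt/wt, and a log2 fold change of 0.00 (SE 0.15).

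The other Ugt2b genes were not called by genotype alone. Ugt2b5, the most abundant member, had 1749, 1147 and 873 CPM in flox/flox, 1353 and 1558 CPM in wt/flox, and 1018, 798 and 599 CPM in wt/wt. Of its exon windows, 24.7% occur in another gene, so its split of reads is uncertain. Its groups overlapped, and the lowest library of wt/wt and the lowest 2 of flox/flox had Xist reads (log2 fold change 0.64 with SE 0.29, edgeR adjusted p = 0.129). With sex by transcripts as a term Ugt2b5 (log2 fold change 0.85, edgeR adjusted p = 0.0126), Ugt2b1 (0.73, adjusted p = 0.0162) and Ugt2b35 (1.33, adjusted p = 0.00639) were called as well, which made 13 UGT genes higher and 0 lower. In that fit 14.5% of all genes were called higher and 14.6% lower.

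The promoters of Ugt1a1 and Ugt1a6a are shown because these genes of 1 cluster have starts of their own and both rose in flox/flox. Each line is the 250 bases before the start listed by RefSeq on GRCm38.p6, 5′ to 3′ on the gene's strand. They are Ugt1a1 (chr1:88211709-88211958, plus strand) and Ugt1a6a (chr1:88134559-88134808, plus strand). Capitals mark matches to any of the 4 motifs searched on both strands: the antioxidant response element TGACNNNGC, the aryl hydrocarbon receptor core GCGTG, the STAT5 motif TTCNNNGAA and the HNF4 motif CAAAGTCCA.
Ugt1a1: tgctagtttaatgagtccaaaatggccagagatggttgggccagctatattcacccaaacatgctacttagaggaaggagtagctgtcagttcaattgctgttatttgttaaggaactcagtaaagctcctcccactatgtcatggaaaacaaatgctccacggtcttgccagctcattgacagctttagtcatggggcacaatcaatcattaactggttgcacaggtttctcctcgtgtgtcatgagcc
Ugt1a6a: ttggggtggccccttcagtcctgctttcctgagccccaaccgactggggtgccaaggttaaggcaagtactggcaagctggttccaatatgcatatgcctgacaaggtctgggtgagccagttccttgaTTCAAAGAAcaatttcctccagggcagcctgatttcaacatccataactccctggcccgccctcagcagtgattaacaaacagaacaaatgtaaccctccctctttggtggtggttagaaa
The windows shared 48.4% of aligned bases. Ugt1a6a holds a STAT5 match 121 bases before its start, and the window of Ugt1a1 holds none of the 4 motifs. Of the 54 members 47 had a promoter in the table, 16 UGT, 19 GST and 12 SULT genes, and shares are set beside those of all 27025 promoters. A match is a description of the letters and not a site shown to be bound.

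Of the GST genes, those that fell came from 4 classes: Gsta3 and Gsta4 (alpha), Gstm6 (mu), Gsto1 (omega) and Gstz1 (zeta). Gsta3 had 519, 478 and 513 CPM in flox/flox, 799 and 649 CPM in wt/flox, and 1005, 1266 and 786 CPM in wt/wt. The flox/flox libraries lay close together below all others, and the log2 fold change was -1.02 (SE 0.19, edgeR adjusted p = 0.00746). Gsta4, which conjugates the lipid peroxidation product 4-hydroxynonenal, had 17.8, 17.4 and 17.2 CPM in flox/flox, 28.3 and 22.9 CPM in wt/flox, and 33.7, 24.3 and 24.7 CPM in wt/wt (log2 fold change -0.66 with SE 0.15, edgeR adjusted p = 0.0167). Gstm6 (chromosome 3, 107938847 to 107943749, GRCm38) had 35.0, 29.45 and 30.0 CPM in flox/flox, 48.3 and 35.4 CPM in wt/flox, and 52.8, 71.4 and 48.8 CPM in wt/wt (log2 fold change -0.87 with SE 0.18, edgeR adjusted p = 0.0113).

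Gstz1, the maleylacetoacetate isomerase of tyrosine breakdown, had 256, 320.1 and 305 CPM in flox/flox, 371 and 302 CPM in wt/flox, and 472, 475 and 389 CPM in wt/wt (log2 fold change -0.60 with SE 0.15, edgeR adjusted p = 0.0219). Gsto1, an omega-class enzyme with thioltransferase activity, had 45.0, 53.6 and 51.5 CPM in flox/flox, 57.6 and 47.0 CPM in wt/flox, and 64.7, 73.9 and 71.9 CPM in wt/wt (log2 fold change -0.49 with SE 0.12, edgeR adjusted p = 0.0214). None of the 5 genes overlapped between flox/flox and wt/wt. They were picked by their calls on these same values, so this is a description and adds no support. The share of all genes without overlap was not counted. Calls were lost for Gstz1 without wt/wt replicate 1 or 2, for Gsto1 without wt/wt replicate 2 or 3, and for Gsta4 without flox/flox replicate 2. Gstm1, the most abundant mu-class gene, was not called: it had 1138, 313 and 404 CPM in flox/flox, 703 and 477 CPM in wt/flox, and 779.5, 855 and 735 CPM in wt/wt (edgeR adjusted p = 0.577). The other 15 GST genes ranged from Gstp1 (log2 fold change -1.95, adjusted p = 0.190) to Gsta1 (0.44, adjusted p = 0.774). Of the exon windows of Gsta1, 80.6% occur in another gene, so its value is uncertain. With sex by transcripts as a term Gstp1 was called lower too (log2 fold change -1.07, edgeR adjusted p = 0.00507), which made 6 GST genes lower.

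Gsta3 is shown because it had the smallest adjusted p among the GST genes that fell, and because it is 1 of 2 members, with Gstm5, whose window holds the antioxidant response element. The window is Gsta3 (chr1:21240335-21240584, plus strand), drawn and marked as above.
Gsta3: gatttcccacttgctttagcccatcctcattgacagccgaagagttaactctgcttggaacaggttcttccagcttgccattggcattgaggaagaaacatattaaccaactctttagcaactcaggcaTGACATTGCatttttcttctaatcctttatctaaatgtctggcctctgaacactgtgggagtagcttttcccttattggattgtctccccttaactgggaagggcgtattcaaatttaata
The element lies 121 bases before the start. Over all promoters the element occurred in 10.1%, and in the members in 0 of 16 UGT, 2 of 19 GST and 0 of 12 SULT. The aryl hydrocarbon receptor core occurred in 28.2% of all promoters, and in 1 UGT, 5 GST and 1 SULT promoters. The STAT5 motif occurred in 7.18% of all promoters and in 1 promoter of each class, and the HNF4 motif in 0.381% of all promoters and in no member.

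The GST calls changed with the treatment of exon length. When each library's trend of level with exon length was removed, 12 members were called higher and 3 lower (80% of calls higher), beside 11.0% and 11.6% of all genes. In that fit UGT calls numbered 11 higher and 0 lower, with Ugt1a10 added (log2 fold change 1.71, edgeR adjusted p = 0.0421). The GST median became 0.06 and 9 of the 21 genes lay below 0, with 3 called lower (Gsta3, -1.02, adjusted p = 0.012; Gstm6, -0.61, adjusted p = 0.0431; Gstz1, -0.67, adjusted p = 0.020) and Gstk1 called higher (0.45, adjusted p = 0.0257). Gsta4 (-0.24, adjusted p = 0.276) and Gsto1 (-0.24, adjusted p = 0.187) were no longer called.

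**Figure D4:**
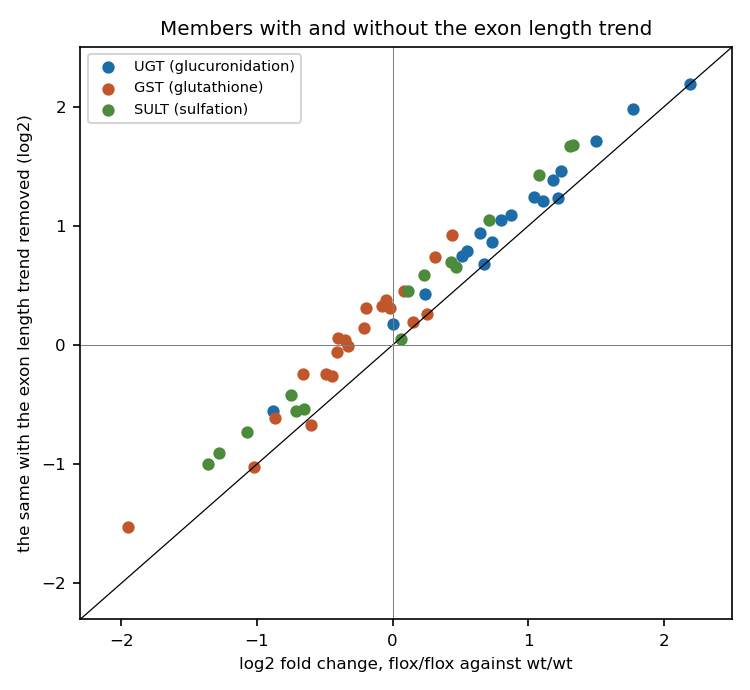
The x axis is the log2 fold change of flox/flox against wt/wt and the y axis the same after each library's trend with exon length was removed; each point is a member, coloured by class, and the diagonal marks equal values. Most points lie above the diagonal, and the GST median moves across 0 (-0.33 on the x axis, 0.06 on the y axis), whereas the UGT median stays above 0 (0.83 and 1.07).

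Among the SULT genes Sult1b1 (chromosome 5, 87513339 to 87538195, GRCm38), which sulfates thyroid hormones and phenols, was called lower. It had 13.7, 11.5 and 14.8 CPM in flox/flox, 17.1 and 11.35 CPM in wt/flox, and 24.3, 24.1 and 16.9 CPM in wt/wt (log2 fold change -0.71 with SE 0.21, edgeR adjusted p = 0.0361). It was called under 13 of the 23 alternatives. Those that ended the call included labelled sex, sex by transcripts (adjusted p = 0.0702) and the length trend removed (adjusted p = 0.0806). Others were omission of replicate 1 or 2 of wt/wt, or of any 1 replicate of flox/flox. With sex by transcripts, Sult2a7 (log2 fold change -1.64, edgeR adjusted p = 0.0172) and Sult3a1 (-2.03, adjusted p = 0.00994) were called lower instead. Sult3a1 had 0 to 3 reads in each library with Y-linked reads and reached the read minimum only through the others. Its call thus rests mainly on wt/wt replicate 3 (130 CPM) against flox/flox replicates 2 and 3 (41.6 and 20.5 CPM). Sult1d1, which sulfates catecholamines and phenols, had 119.9, 123.3 and 119.7 CPM in flox/flox, 123.2 and 64.25 CPM in wt/flox, and 88.9, 66.15 and 107.4 CPM in wt/wt. The flox/flox libraries were all above those of wt/wt, but the difference did not pass the test (log2 fold change 0.47 with SE 0.25, edgeR adjusted p = 0.200). The sign of the SULT median turned with the setting, from 0.11 by genotype alone to -0.29 with sex by transcripts and -0.22 with library size alone.

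The comparison of wt/flox with wt/wt shares its wt/wt libraries with the one above. In it 5 members were called higher, all UGT genes, and 0 lower, beside 6.58% and 5.89% of all genes. They were Ugt1a6a (log2 fold change 1.34 with SE 0.22, edgeR adjusted p = 0.0161), Ugt1a6b (1.31, SE 0.22, adjusted p = 0.0164), Ugt3a2 (0.68, SE 0.15, adjusted p = 0.0279), Ugt2b34 (0.80, SE 0.18, adjusted p = 0.0316) and Ugt2a3 (0.61, SE 0.15, adjusted p = 0.0389). The calls of Ugt3a2, Ugt2b34 and Ugt2a3 were lost with labelled sex, with library size alone and without any 1 library of wt/wt, and that of Ugt2b34 also with the length trend removed (adjusted p = 0.0511). For the same 5 genes flox/flox against wt/wt gave 1.22, 1.18, 0.73, 0.67 and 0.55. The UGT median was 0.86 and the GST median -0.42, beside -0.06 for all genes. No GST gene passed, the smallest p being that of Gstp3 (log2 fold change -1.01 with SE 0.29, edgeR adjusted p = 0.0576), and the SULT gene of smallest p was Sult2a7 (-1.59, SE 0.60, adjusted p = 0.117). With sex by transcripts 10 members were called higher and 0 lower, beside 7.58% and 6.90% of all genes, the added ones being Ugt1a1, Ugt1a2, Ugt2b1, Ugt2b36 and Ugt3a1 (adjusted p from 0.0167 to 0.0290). With the exon length trend removed 6 were called higher and 0 lower, beside 2.72% and 1.74% of all genes. With 2 wt/flox libraries the calls rest on both, since without either of them 0 members were called. They also numbered 0 when wt/wt replicate 2 was left out, 2 for wt/wt replicate 1, 3 for wt/wt replicate 3 and 9 for flox/flox replicate 1. With library size alone 2 members were called higher and 9 lower (18.2% of calls higher, 100% with TMM), the median of all genes then being -0.42.

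The comparison of flox/flox with wt/flox is the one within the second batch. No member and no gene was called in it (0.00% of 14728 genes by edgeR), while 3 members and 1240 genes had an unadjusted p under 0.05. limma-voom also called 0 genes. The members of smallest p were Ugt3a1 (log2 fold change -0.61 with SE 0.17, adjusted p = 0.558), Gsta4 (-0.55, SE 0.17) and Gsta3 (-0.52, SE 0.21), and for each the flox/flox libraries lay below both wt/flox libraries. In the SULT class the smallest p was that of Sult2a8, known in mice to sulfate bile acids, with 353, 315 and 328 CPM in flox/flox and 534 and 509 CPM in wt/flox (log2 fold change -0.65 with SE 0.30, adjusted p = 0.558). Both wt/flox libraries had Y-linked reads, while flox/flox replicates 2 and 3 had Xist reads. Ugt3a1 and Sult2a8 were also lower in all libraries with Xist reads than in those with Y-linked reads. The UGT median was -0.05 and the GST median 0.07, beside 0.04 for all genes. The SULT median was 2.38, with 13 of 15 genes above 0, and 0.06 with sex by transcripts. Ugt1a6a (log2 fold change -0.11 with SE 0.23), Ugt2a3 (-0.06, SE 0.15) and Ugt3a2 (0.05, SE 0.15), which rose in both comparisons with wt/wt, had differences smaller than their standard error here. DESeq2 called 0.509% of genes and 5 members, Sult2a2, Sult2a3, Sult2a5, Sult3a1 and Sult3a2. These had 0 reads in both wt/flox libraries and were high in the flox/flox libraries with Xist reads, so no fold is given.

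The members whose levels did not overlap between libraries with Xist reads and libraries with Y-linked reads cut across genotype. The group sizes are 3 and 5, the labels do not define these groups, and no test was made. The split is tied to labelled age. Both libraries labelled 7 weeks had Xist reads, all labelled 11 weeks had Y-linked reads, and those labelled 9 weeks were of both kinds. The term of sex by transcripts in the fits is tied to age in the same way. Of the 54 members 11 were higher in all libraries with Xist reads, 6 were lower and 37 overlapped, beside 3.80% of all genes higher and 3.59% lower. By class, 8 of 15 SULT genes were higher and 1 lower, 2 of 18 UGT genes higher and 3 lower, and 1 of 21 GST genes higher and 2 lower. The minimum of 80 reads shaped the SULT count: 7 SULT genes reached it only through the libraries with Xist reads, with 0 to 12 reads in the 5 others together, and 6 of them (Sult2a1, Sult2a2, Sult2a3, Sult2a5, Sult3a1 and Sult3a2) are among the 8 higher. Such genes could enter only by being high there, so the SULT count and the total of 11 of 54 are descriptions. Nothing is read from either against the share of all genes.

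Among sulfotransferases Sult2a1, which sulfates steroids and bile acids and is known to be female-predominant in mouse liver, had 135.4 and 42.0 CPM in flox/flox replicates 2 and 3 and 84.2 CPM in wt/wt replicate 3. It reached at most 0.0555 CPM in the 5 other libraries. Sult2a2 had 137 and 57.9 CPM in flox/flox replicates 2 and 3 and 78.7 CPM in wt/wt replicate 3, against at most 0.0507 CPM elsewhere, and 34.6% of its exon windows occur in other genes. Sult3a1, known in mice for amine sulfation and for its predominance in females, had 41.6 and 20.5 CPM in flox/flox replicates 2 and 3 and 130.0 CPM in wt/wt replicate 3, against at most 0.0305 CPM elsewhere. Within the libraries with Xist reads the wt/wt library was thus the highest for Sult3a1 and not for Sult2a1 or Sult2a2. Its neighbour Sult3a2 had 2.56 and 0.964 CPM in flox/flox replicates 2 and 3 and 9.08 CPM in wt/wt replicate 3, and 0 reads in the 5 with Y-linked reads. Sult2a5 had 3.37 and 6.05 CPM in flox/flox replicates 2 and 3 and 5.75 CPM in wt/wt replicate 3, and Sult2a3 had 1.07 and 0.258 CPM in flox/flox replicates 2 and 3 and 1.14 CPM in wt/wt replicate 3, both with 0 reads in those 5. Such a 0 allows up to 3 reads in a library at a confidence level of 95%, by counting error.

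The estrogen sulfotransferase Sult1e1 was low in all libraries, at 0.608 to 1.35 CPM in those with Xist reads and 0.0761 to 0.522 CPM in those with Y-linked reads. Sult1a1 was high in both, at 257.5 to 328 CPM with Xist reads and 152 to 209.5 CPM with Y-linked reads. Sult2a8 ran the other way, at 302 to 328 CPM with Xist reads and 353 to 672 CPM with Y-linked reads. The Sult2a genes thus included members at or near 0 in libraries with Y-linked reads and a member abundant in both kinds.

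The promoters of Sult2a3, Sult2a5 and Sult3a1 are shown because these genes had reads in the libraries with Xist reads and almost none elsewhere. The windows are Sult2a3 (chr7:14123049-14123298, minus strand), Sult2a5 (chr7:13623717-13623966, plus strand) and Sult3a1 (chr10:33857472-33857721, plus strand), with capitals as above.
Sult2a3: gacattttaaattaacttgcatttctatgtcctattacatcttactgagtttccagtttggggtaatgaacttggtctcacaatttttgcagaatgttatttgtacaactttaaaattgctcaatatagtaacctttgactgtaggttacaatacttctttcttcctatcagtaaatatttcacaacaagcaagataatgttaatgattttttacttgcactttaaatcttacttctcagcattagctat
Sult2a5: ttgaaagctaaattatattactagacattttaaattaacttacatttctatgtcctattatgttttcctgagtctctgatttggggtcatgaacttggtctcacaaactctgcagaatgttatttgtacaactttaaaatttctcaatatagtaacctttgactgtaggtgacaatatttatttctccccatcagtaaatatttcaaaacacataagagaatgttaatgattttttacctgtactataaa
Sult3a1: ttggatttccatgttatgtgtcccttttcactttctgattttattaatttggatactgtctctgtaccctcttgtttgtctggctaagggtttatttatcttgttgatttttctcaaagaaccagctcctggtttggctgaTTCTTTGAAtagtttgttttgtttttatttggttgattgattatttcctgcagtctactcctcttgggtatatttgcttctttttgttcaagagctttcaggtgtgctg
Sult2a3 and Sult2a5 shared 73.3% of aligned bases, and neither window holds any of the 4 motifs. Sult3a1 holds a STAT5 match 109 bases before its start, and its neighbour Sult3a2 shared 45.5% of aligned bases with it.

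Among UGT genes Ugt2b38 was lower in libraries with Xist reads, at 1.25 and 0.865 CPM in flox/flox replicates 2 and 3 and 3.38 CPM in wt/wt replicate 3. It had 28.0 CPM in flox/flox replicate 1, 34.15 and 70.6 CPM in wt/flox, and 25.6 and 26.4 CPM in wt/wt replicates 1 and 2. Of its exon windows, 24.2% occur in another gene, so its split of reads is uncertain. Ugt2b37, whose promoter shares 84.8% of aligned bases with that of Ugt2b38, went the other way, at 13.7 to 23.1 CPM with Xist reads and 1.98 to 12.3 CPM with Y-linked reads. Ugt2b1 was lower with Xist reads, at 243 to 474 CPM against 623 to 1341 CPM with Y-linked reads. Ugt3a1 was lower too, at 54.3 to 61.9 against 71.0 to 103.5 CPM, and Ugt1a5 was higher, at 89.6 to 153 against 22.2 to 49.7 CPM.

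Among GST genes Gstp1, a pi-class gene known to be male-predominant in mouse liver, had 65.1 and 81.2 CPM in flox/flox replicates 2 and 3 and 141 CPM in wt/wt replicate 3. It had 603 CPM in flox/flox replicate 1, 899 and 887 CPM in wt/flox, and 1510.0 and 1236 CPM in wt/wt replicates 1 and 2. Both kinds of library thus held their highest values in wt/wt. Gstp1 shares 25.1% and Gstp2 46.9% of exon windows with other genes, so the split between them is uncertain; Gstp2 was 0.0804 to 0.675 CPM with Xist reads and 1.01 to 4.65 CPM with Y-linked reads. Gstt3 was higher with Xist reads, at 71.1 to 86.2 CPM against 24.3 to 38.3 CPM.

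**Figure D5:**
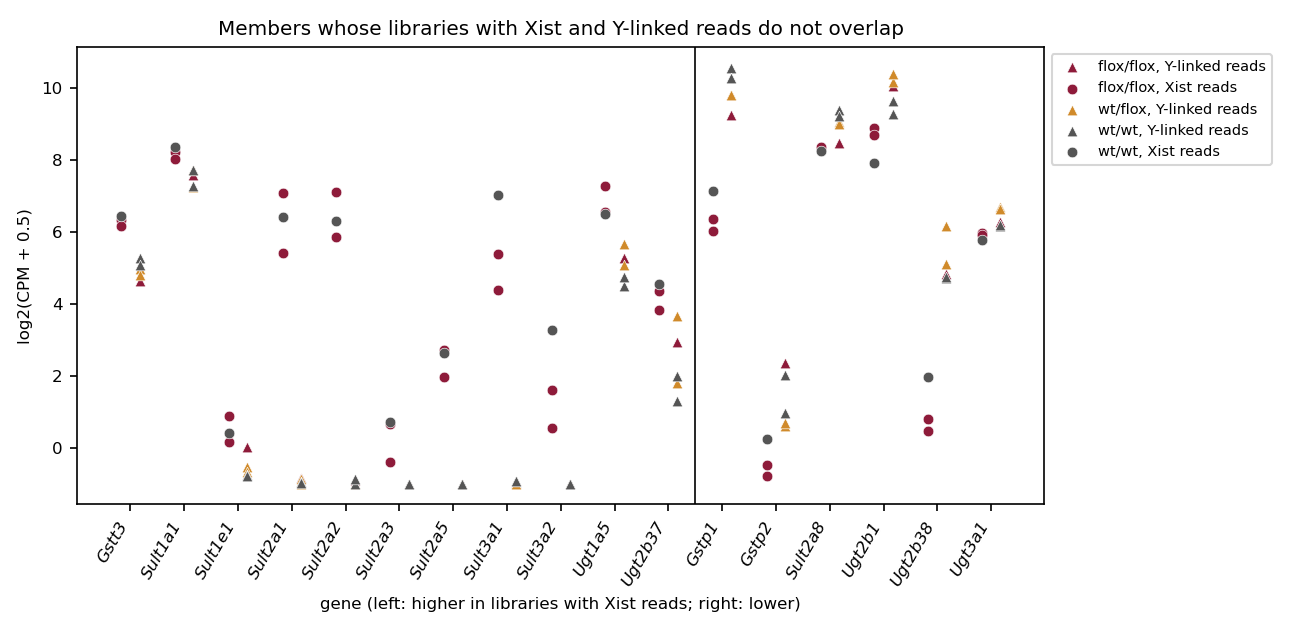
The y axis is log2(CPM + 0.5) and each column a member whose libraries with Xist reads (circles) and Y-linked reads (triangles) do not overlap, coloured by genotype; 11 genes that were higher with Xist reads are on the left and 6 that were lower on the right. The gap is widest for Sult2a1, Sult2a2 and Sult3a1, whose triangles lie at the value of 0 to 0.0555 CPM.

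Genes around the 3 families were counted from lists, in flox/flox against wt/wt, where 15.1% of all genes were called higher and 14.7% lower. Of 8 genes listed as exporters of conjugates, Abcb1a among them, 5 were called higher and 0 lower, with a median log2 fold change of 1.19. Abcc2, the canalicular exporter of bilirubin glucuronides and glutathione conjugates, had 1382, 1130.0 and 1352 CPM in flox/flox, 1256 and 1178 CPM in wt/flox, and 534, 376 and 430 CPM in wt/wt (log2 fold change 1.53 with SE 0.17, edgeR adjusted p = 0.00168). Abcc3, which moves glucuronides to blood, had 699, 495 and 513 CPM in flox/flox, 491 and 420.4 CPM in wt/flox, and 198, 200.3 and 278 CPM in wt/wt (log2 fold change 1.33 with SE 0.20, edgeR adjusted p = 0.00362). Abcc6 (log2 fold change 1.18 with SE 0.17), Abcb1a (2.70, SE 0.77) and Abcc5 (1.20, SE 0.36) were the others. Abcb1a had 4.82, 27.95 and 33.26 CPM in flox/flox, 3.26 and 4.06 CPM in wt/flox, and 2.02, 1.65 and 6.53 CPM in wt/wt. Its groups overlapped, and the highest library of wt/wt and the highest 2 of flox/flox had Xist reads. Abcc5 overlapped too, with 3.25 CPM in flox/flox replicate 2 and 3.40 CPM in wt/wt replicate 3. Abcc2, Abcc3 and Abcc6 were called under all 23 alternatives. Abcc5 was called under 13 of them, but not with the length trend removed (adjusted p = 0.0959), and Abcb1a under 15. With sex by transcripts Abcg2, an apical exporter, was called too (log2 fold change 0.64, edgeR adjusted p = 0.00742), which made 6 higher. Abcc2, Abcc3 and Abcc6 were also called higher in wt/flox against wt/wt, at 1.45, 1.02 and 0.97, beside 6.58% of all genes. With sex by transcripts 5 exporters were called higher in that comparison. The calls of Abcc2, Abcc3 and Abcc6 there were lost without wt/wt replicate 2 and without either wt/flox library. They were also lost with replicate number and sex by transcripts both as terms. Abcc3 and Abcc6 lost the call without wt/wt replicate 1 too, and Abcc3 with library size alone and with the length trend removed.

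Of 14 genes of cofactor supply 4 were called higher and 3 lower, a small list beside 15.1% and 14.7% of all genes. Slc35d1, which carries UDP-glucuronic acid into the endoplasmic reticulum, had 295, 238 and 224 CPM in flox/flox, 301 and 273.5 CPM in wt/flox, and 163, 157 and 125 CPM in wt/wt (log2 fold change 0.77 with SE 0.16, edgeR adjusted p = 0.0104). Slc35b3, a carrier of PAPS, was also higher (log2 fold change 0.80 with SE 0.15). Papss1, a PAPS synthase, fell by 0.98 on the log2 scale (SE 0.18, edgeR adjusted p = 0.00624), with 8.67, 9.36 and 6.23 CPM in flox/flox, 9.85 and 12.7 CPM in wt/flox, and 15.4, 16.9 and 15.6 CPM in wt/wt. Papss2, the other PAPS synthase on the list, was far more abundant and was not called. It ranged from 114.9 to 287.4 CPM in flox/flox, 129.2 to 198.5 CPM in wt/flox and 159.1 to 267.7 CPM in wt/wt. Gsr, the glutathione reductase, fell by 0.73 (SE 0.19, adjusted p = 0.0238) and Bpnt1, which clears the product of sulfation, by 0.55 (SE 0.15, adjusted p = 0.0276). With the length trend removed Slc35d1 (adjusted p = 0.0544), Gsr (0.0725) and Bpnt1 (0.164) were no longer called, and with sex by transcripts Slc35b2, another carrier of PAPS, was not (0.0523, against 0.0334 by genotype alone), which left 3 higher. Gsr and Bpnt1 also lost the call without replicate 1 or 2 of wt/wt, Gsr without flox/flox replicate 2 and Bpnt1 without wt/wt replicate 3. Papss1 was called under all 23 alternatives.

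Of 14 regulators 1 was called higher and 2 lower, which is at or under the shares of all genes. Nr1i3, the gene of CAR, had 71.0, 116 and 115 CPM in flox/flox, 61.4 and 48.7 CPM in wt/flox, and 44.1, 42.6 and 68.5 CPM in wt/wt (log2 fold change 0.96 with SE 0.25, edgeR adjusted p = 0.0257). The call was lost without replicate 1 or 2 of wt/wt or replicate 2 or 3 of flox/flox. Keap1, the inhibitor of NRF2, had 33.5, 34.9 and 31.3 CPM in flox/flox, 30.9 and 33.3 CPM in wt/flox, and 43.1, 46.2 and 50.0 CPM in wt/wt (log2 fold change -0.48 with SE 0.10, edgeR adjusted p = 0.0116). Bcl6, a repressor of female-predominant genes in mouse liver, was 14.5, 25.4 and 12.25 CPM in flox/flox, 53.4 and 49.75 CPM in wt/flox, and 86.3, 55.4 and 23.8 CPM in wt/wt. It overlapped between flox/flox and wt/wt and was called lower by genotype alone (log2 fold change -1.67 with SE 0.46, edgeR adjusted p = 0.0289), but not with sex by transcripts (adjusted p = 0.0995), nor without replicate 1 or 2 of wt/wt, replicate 2 of wt/flox or replicate 1 or 3 of flox/flox. The genes of PXR (Nr1i2), the aryl hydrocarbon receptor (Ahr) and NRF2 (Nfe2l2) were not called, at log2 fold changes of 0.08, 0.32 and 0.34. Of 2 tested deconjugating enzymes Gusb, the beta-glucuronidase, was called higher (log2 fold change 0.55 with SE 0.12, edgeR adjusted p = 0.0141), though not without wt/wt replicate 1. The call of Gusb was also lost with library size alone and without the 2 libraries of contradicted sex. Replicate number and sex by transcripts, both as terms, ended it too.

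Among markers of other cell types the calls fell mostly on sinusoidal endothelial cells. In flox/flox against wt/wt, 6 of 9 were called lower and 0 higher (median log2 fold change -0.96), beside 14.7% of all genes lower, and 7 with sex by transcripts, which added Kdr (adjusted p = 0.00809). In wt/flox against wt/wt, 4 were called lower, beside 5.89% of all genes, and 6 with sex by transcripts. Of the endothelial calls in flox/flox against wt/wt, that of Ehd3 held under all 23 alternatives. Dnase1l3 and Eng were called under 21 of them, Clec4g under 20, Pecam1 under 14 and Oit3 under 11. Of 9 Kupffer cell and macrophage markers 0 were called in flox/flox against wt/wt by genotype alone (median -1.15) and 1, C1qc, with sex by transcripts (adjusted p = 0.0387). Of the other lists 1 of 5 cholangiocyte markers (Sox9) and 1 of 3 neutrophil markers (S100a9) were called lower, and 0 of 7 stellate and 0 of 4 T, NK and B cell markers were called. S100a9 was low, with 0.067 to 0.17 CPM in flox/flox and 0.25, 0.19 and 3.62 CPM in wt/wt. It was called under 10 of the 23 alternatives, and Sox9 under 14. With sex by transcripts Sox9 was no longer called (adjusted p = 0.0602), and S100a8 (0.0313) and the stellate marker Des (0.0477) were called lower. Of 8 hepatocyte markers 1, Cps1, was called higher (median 0.26). In flox/flox against wt/flox, within the second batch, 0 markers of any list were called by edgeR, where 1240 of all genes had an unadjusted p under 0.05; the endothelial median was 0.22 and the Kupffer median 0.98. The Kupffer markers summed to 32.2 to 115 CPM in flox/flox, 31.3 to 32.8 CPM in wt/flox and 56.5 to 246 CPM in wt/wt, with overlap between flox/flox and wt/wt. No gene of the endothelial and Kupffer lists was at 0 in all libraries of a group. The part of cell makeup in the levels of the conjugating enzymes was not tested.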

How the data were processed

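The authors deposited raw read counts, 1 table per library, with, per the file headers, sense and antisense reads per gene symbol. GRCm38 (mm10) and DESeq2 are named in the submitters' processing notes; not given in the sources used here are the aligner, the counter and the annotation. Sense counts of 25229 genes were used, and 5 rows without a gene were set aside (reads in no gene, 22.2% to 40.0%).

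All 8 libraries entered 1 edgeR 4.0.16 (R 4.3.3) quasi-likelihood fit with genotype as the term, TMM scaling and the filterByExpr filter, with two-sided p adjusted by Benjamini-Hochberg over 14728 genes at 0.05. No pair of replicates within a group agreed within sampling noise. Coordinates and exon lengths come from GENCODE M21 (GRCm38), promoters from RefSeq (GRCm38.p6) for 47 members. Shared exon windows are 100-base windows found in another gene.

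Members, lists and tests were chosen with earlier results of these data known. The rule for names took, per class, the 3 highest members, the 4 most variable and, per contrast, up to 5 called each way or the 1 of smallest p, up to 4 called genes per list, Adar and Ifih1 (0 to 4 reads per library). Other genes were named after their values were seen. Alternatives were RLE, upper-quartile and library-size scaling, 2 filters, DESeq2 1.42.0, limma-voom (limma 3.58.1), labelled sex, sex by transcripts, a replicate block, fewer groups or libraries, an exon length trend removed, and antisense reads added. Scripts were tested on simulated data.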

Additional observations from a re-analysis of the deposited data

Results flagged for a closer look

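Reads on the opposite strand, which enter none of the main comparisons, were followed by class. These reads made up 7.63% of the reads of GST genes in flox/flox on average (± 0.92 SD, n = 3, range 6.97% to 8.68%), and 6.78% in wt/wt (± 0.02, n = 3, range 6.76% to 6.80%). The 3 flox/flox libraries all lay above the 3 wt/wt libraries, and wt/flox had 6.43% and 7.16%. The difference was not tested. Over the reads of all genes the share was likewise higher in each flox/flox library than in each wt/wt library. The order seen in GST is therefore not particular to this class. In the SULT class flox/flox averaged 2.15% (± 0.03) and wt/wt 2.78% (± 0.17), without overlap and in the other direction.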

How the results depend on the processing

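No member that the rule for names took changed sign while called under any of the 23 alternatives, but summaries did turn: the SULT median of flox/flox against wt/wt (0.11) became -0.29 with sex by transcripts and -0.22 with library size alone, the GST median (-0.33) became 0.06 with the length trend removed, and library size alone gave more lower than higher calls in both comparisons with wt/wt. Of the values of these genes, 1364 kept their side of the threshold, 57 became called and 89 lost the call; causes were not tested. In flox/flox against wt/wt, where 10 members were called higher and 6 lower, DESeq2 called 12 and 9 (3 SULT genes lower), the exon length trend removed 12 and 3 (3 GST, 0 SULT lower), library size alone 6 and 9 (6 UGT higher, 7 GST and 2 SULT lower), labelled sex 9 and 5 (0 SULT lower), sex by transcripts 13 and 8 (2 SULT lower), and omission of the 2 libraries of contradicted sex 5 and 0 (5 UGT higher, 0 GST and 0 SULT lower). In wt/flox against wt/wt, where 5 members, all UGT genes, were called higher and 0 lower, DESeq2 called 12 and 8, library size alone 2 and 9, labelled sex 3 and 0, sex by transcripts 10 and 0, the 2 groups alone 8 and 0, and omission of the 2 libraries 8 and 0; upper-quartile scaling and a mean CPM of at least 1 each called 1 lower. In flox/flox against wt/flox DESeq2 called 5 higher and all other settings 0. With each library left out in turn, calls in flox/flox against wt/wt ranged from 5 to 12 higher and 3 to 9 lower (UGT 5 to 10 higher, GST 3 to 8 lower, SULT 0 to 2 lower), those in wt/flox against wt/wt from 0 to 9 higher (UGT 0 to 9) and 0 lower, and those in flox/flox against wt/flox were 0. Over all genes, 4400 calls in flox/flox against wt/wt ranged from 2195 to 4722. Where an arm was left with 1 library, that library is assumed to vary like the others.

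Whether the replicate numbers, which coincide with the labelled ages, pair the samples could not be decided. Deviations of same-numbered libraries correlated at 0.01 to 0.45, and those of other pairs across groups at -0.48 to 0.34. The deviations of wt/wt replicate 2 correlated more with flox/flox replicate 1 (0.34) than with flox/flox replicate 2 (0.02). Only the first of these pairs shares Y-linked reads, so this comparison cannot separate replicate number from sex. With the replicate number as a block, 12 members were called higher and 7 lower in flox/flox against wt/wt (2 SULT lower), 3 higher in wt/flox against wt/wt, without Ugt3a2, Ugt2b34 and Ugt2a3, and 0 in flox/flox against wt/flox. With the block and sex by transcripts together these were 6 higher and 4 lower (6 UGT higher, 2 GST and 2 SULT lower), 0 and 0. Depth limits the lowest members, such as Gsto2 and Sult2a6, which had 114 and 133 reads in all.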

Other observations

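Enzymes next to the 3 families, in flox/flox against wt/wt, were counted beside 15.1% of all genes higher and 14.7% lower. Of 5 tested transferases related to them but outside the symbols used, such as the microsomal glutathione transferases, 0 were called. Mgst1, the most abundant of them, had 2420.0, 1528 and 1797 CPM in flox/flox, 2716 and 2439 CPM in wt/flox, and 2237, 2015 and 1601 CPM in wt/wt (log2 fold change -0.03 with SE 0.21). Of 10 other conjugation and detoxification enzymes 2 were called lower, near the share of all genes, and with sex by transcripts Ephx1, the microsomal epoxide hydrolase, was called higher as well (log2 fold change 0.70, edgeR adjusted p = 0.0108). Tst, the mitochondrial thiosulfate sulfurtransferase, had 77.7, 110.0 and 92.1 CPM in flox/flox, 121 and 108 CPM in wt/flox, and 188, 211 and 184 CPM in wt/wt (log2 fold change -1.06 with SE 0.15, edgeR adjusted p = 0.00292). Glyat, which conjugates glycine, had 106.5, 101 and 78.8 CPM in flox/flox, 118 and 143 CPM in wt/flox, and 197, 200.0 and 146 CPM in wt/wt (log2 fold change -0.92 with SE 0.18, edgeR adjusted p = 0.00793).

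Of 9 genes known as NRF2 targets outside the 3 families 0 were called by edgeR with genotype alone or with sex by transcripts. With the exon length trend removed Gclm was called lower (log2 fold change -0.52, edgeR adjusted p = 0.0327) and Nqo1 higher (1.14, adjusted p = 0.0474) in flox/flox against wt/wt. By genotype alone the smallest p was that of Gclm, a subunit of the rate-limiting enzyme of glutathione synthesis, with 97.2, 124 and 101 CPM in flox/flox, 121 and 117 CPM in wt/flox, and 143, 149 and 126 CPM in wt/wt (log2 fold change -0.38 with SE 0.13, edgeR adjusted p = 0.0632). Nqo1, the quinone reductase, had 9.53, 6.54 and 10.6 CPM in flox/flox, 3.35 and 2.93 CPM in wt/flox, and 4.42, 3.21 and 7.70 CPM in wt/wt. It overlapped between flox/flox and wt/wt but not between flox/flox and wt/flox, and was called in none of the comparisons by genotype alone (log2 fold change 0.80 with SE 0.33, and 1.5, SE 0.38).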
